A study of Sorghum bicolor with 6 samples.

Results

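Sucrose is made in the leaf and taken apart wherever its carbon is used, and the genes for these opposite steps are described here in leaves of 4-week-old sorghum (Sorghum bicolor). The genes are 8 of the 34129 gene models measured, chosen by identifier as known sucrose enzymes, with earlier results of these data known. For synthesis there are 5 genes for sucrose phosphate synthase (SPS). For cleavage there are 2 genes for sucrose synthase (SUS) and 1 gene for the vacuolar invertase (VIN). The identifiers are those of the deposited files, whose ending .v3.2 is given below only where a gene is first described. No table used here pairs the identifiers with names, so the enzyme names rest on published sorghum gene names and could not be checked.

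RNA was sequenced from 3 libraries of plants that carried an empty vector and 3 libraries of plants that overexpressed SbGhd7 (SbGhd7 OE), a CCT-domain regulator of photoperiodic flowering. The labels give no cultivar, promoter, transformation event or hour of harvest, and no label tells whether replicate libraries came from different plants. The p-values rest on the spread among replicate libraries, part of which may be technical. Values are the deposited estimated counts, or normalised read counts (CPM) scaled by TMM, a method that corrects for differences in library size and composition. Fold changes are for SbGhd7 OE over empty vector from edgeR's quasi-likelihood test, with a standard error (SE) and a p-value adjusted over all 20820 genes tested. A gene was called changed at an adjusted p under 0.05. With 3 libraries against 3, an exact permutation test of a single gene cannot give a p below 0.1.

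SPS joins UDP-glucose and fructose 6-phosphate to sucrose 6-phosphate, which a phosphatase then turns into sucrose. It is a regulated step of carbon export from photosynthesising leaves, and in C4 grasses such as maize the enzyme is found mainly in the mesophyll. SUS runs a reversible reaction that in the plant mostly cleaves sucrose with UDP, giving UDP-glucose for cell walls and starch together with fructose. It is best known from growing and storing tissues and from the phloem. The vacuolar invertase splits sucrose irreversibly into glucose and fructose inside the vacuole and is best known from expanding and sugar-storing cells.

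Library totals lay between 27844391 and 35830080. The overexpressed gene SbGhd7 (Sobic.006G004400) had 1.34 ± 0.532 CPM (SD, n = 3) in the empty vector leaves and 571.1 ± 208.2 CPM (SD, n = 3) in SbGhd7 OE, so the libraries matched their labels. Genes that mark leaf cells were abundant in both groups. The 4 mesophyll markers (PEPC, PPDK, NADP-MDH and CA1) all rose, and their summed level went from between 9762 and 11540 CPM to between 30180 and 42650 CPM. Of the 2 bundle sheath markers, NADP-ME fell and RBCS did not pass, and their sum went from between 5823 and 7581 CPM to between 3968 and 4375 CPM. All 3 markers of lignifying tissue (4CL, CAD and C4H) rose, with sums between 50.3 and 60.0 CPM in empty vector and between 211.4 and 268.9 CPM in SbGhd7 OE. No marker was at 0 in any library. The clock genes LHY, a morning-phased MYB gene, and GI, GIGANTEA, also differed, LHY by 30.8-fold upwards and GI by 1.76-fold downwards. The part of cell makeup, tissue age and clock phase in the results below was not tested. In such bulk samples fewer cells of a type and less RNA per cell cannot be told apart.

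All 8 sucrose genes had enough counts to be tested, and 6 of them changed, 3 upwards and 3 downwards. Of all tested genes 53.3% changed, 28.0% upwards and 25.3% downwards, so the number of calls does not set these 8 apart. The sizes of their fitted changes spread more widely. The median absolute log2 fold change was 1.43 over the 8 genes and 0.62 over all tested genes. A called change of at least 2-fold was seen for 5 of the 8, against 27.8% of all tested genes. The 8 genes were chosen with earlier results of these data known, so these comparisons describe them and are not tests. The groups did not overlap for 7 of the 8, against 64.0% of all tested genes. SbGhd7 OE was the higher group for 3 of these (32.4% of all tested genes) and the lower one for 4 (31.5%).

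**Figure D1:**
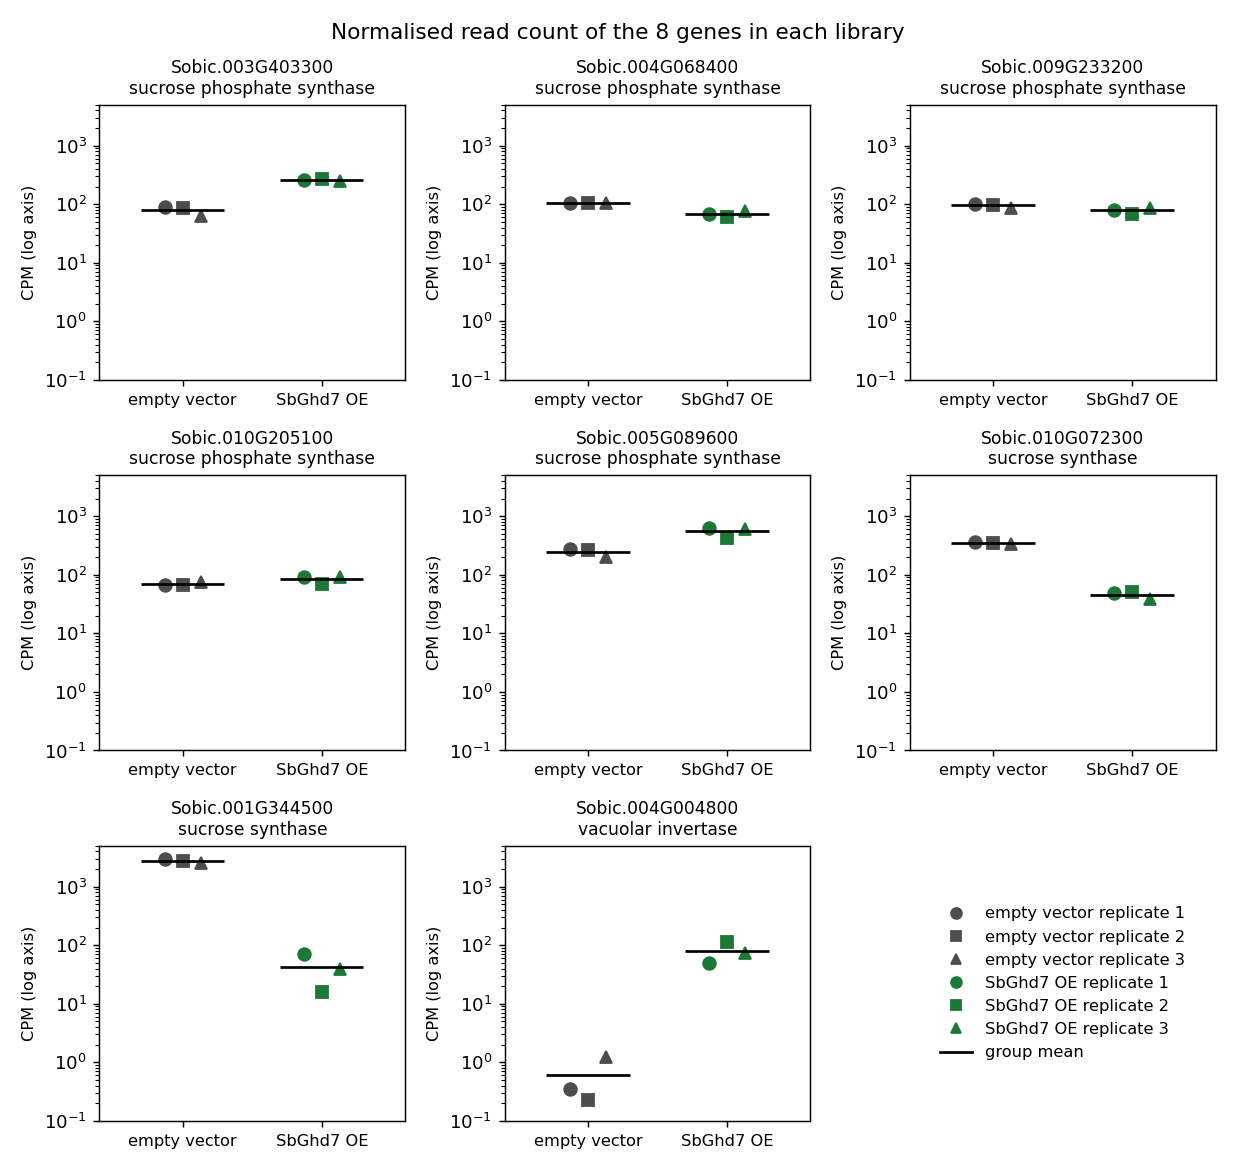
Normalised read count (CPM, log axis) of each of the 8 genes in the 3 empty vector libraries (grey) and the 3 SbGhd7 OE libraries (green), with the group mean as a line. The groups overlap only for Sobic.010G205100, and the widest gaps are those of Sobic.001G344500 and Sobic.004G004800.

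The synthesis genes split. Of the 5 SPS genes 2 rose, 1 fell and 2 did not pass, against 53.3% of all tested genes called. The median log2 fold change of the 5 was 0.26, against -0.0042 over all tested genes. The rises were 3.21-fold and 2.25-fold and the fall was 1.52-fold. Every fitted change among the SPS genes was smaller in size than those of the 3 cleavage genes.

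Sobic.003G403300.v3.2, an SPS gene, had the larger rise. In replicates 1, 2 and 3 of empty vector its counts were 2805, 2700 and 2339. Those of SbGhd7 OE replicates 1, 2 and 3 were 6869, 8332 and 6788, and all counts below follow this order. The lowest SbGhd7 OE library stood 2.73-fold above the highest empty vector library in CPM. Its level went from 80.1 ± 14.6 CPM to 257.04 ± 13.4 CPM (SD, n = 3 each), a log2 fold change of 1.68 (SE 0.156, edgeR adjusted p = 7.6e-05).

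Sobic.005G089600.v3.2, another SPS gene, rose as well. Its counts were 8624, 8227 and 7304 in empty vector and 16929, 13178 and 16813 in SbGhd7 OE. All SbGhd7 OE libraries were above all controls, and replicate 2 was the lowest of its group. The mean went from 246.6 ± 42.6 CPM to 554.7 ± 109.5 CPM (SD, n = 3 each), a log2 fold change of 1.17 (SE 0.198, edgeR adjusted p = 0.0014). For this gene and for Sobic.003G403300, empty vector replicate 3 was the lowest of the controls.

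Sobic.004G068400.v3.2 was the SPS gene that fell. Its counts were 3222, 3246 and 3870 in empty vector and 1804, 1893 and 2144 in SbGhd7 OE. In CPM the controls were nearly equal, at 104.3 ± 1.11 CPM (SD, n = 3), and the SbGhd7 OE libraries stood at 68.6 ± 7.95 CPM (SD, n = 3). The groups did not overlap (log2 fold change -0.60, SE 0.114, edgeR adjusted p = 0.0026).

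The remaining SPS genes had small fitted differences. Sobic.009G233200.v3.2 had CPM values of 102.3, 95.7 and 87.8 in empty vector and 79.7, 69.4 and 86.8 in SbGhd7 OE. The groups were only just apart, at a ratio of 1.01 between their nearest libraries, and the gene did not pass (log2 fold change -0.28, 95% interval -0.55 to 0.00059, edgeR adjusted p = 0.085). It passed with scaling by library size alone (log2 fold change -0.35, edgeR adjusted p = 0.039) and without SbGhd7 OE replicate 3 (-0.36, edgeR adjusted p = 0.046). Sobic.010G205100.v3.2 had 67.9, 67.8 and 75.6 CPM in empty vector and 92.8, 70.8 and 89.8 CPM in SbGhd7 OE. SbGhd7 OE replicate 2 lay within the range of the controls (log2 fold change 0.26, 95% interval -0.034 to 0.56, edgeR adjusted p = 0.12). Without that library the gene passed upwards (log2 fold change 0.38, edgeR adjusted p = 0.015). For both genes the 95% intervals exclude a 2-fold change in either direction.

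The makeup of the SPS counts differed between the groups. Sobic.003G403300 held at most 14.0% of the summed SPS counts in a control library and between 22.2% and 30.1% in SbGhd7 OE. Sobic.004G068400 went from 17.6% ± 1.93 to 6.60% ± 0.554 (SD, n = 3 each). Sobic.005G089600 went from 41.1% ± 3.26 to 52.8% ± 4.57 (SD, n = 3 each). The groups did not overlap for any of these 3 shares. These shares are of counts and not corrected for transcript length, which was not used here. They can be compared between libraries for a gene, but not between genes.

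The sucrose synthase genes fell together and by far more than any SPS gene changed. Sobic.001G344500 fell 65.1-fold and Sobic.010G072300 fell 7.54-fold. Sobic.001G344500 took between 0.263% and 0.304% of all counts of a control library, and between 0.00158% and 0.00669% of those of an SbGhd7 OE library.

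Sobic.001G344500.v3.2 had 93155, 83502 and 94218 counts in empty vector and 1928, 488 and 1080 counts in SbGhd7 OE. The highest SbGhd7 OE library was 35.6-fold below the lowest control in CPM. The controls were close to each other, with a coefficient of variation of 7.90%, and the SbGhd7 OE libraries differed up to 4.51-fold, with a coefficient of variation of 66.5%. The mean fell from 2744 ± 216.9 CPM to 42.2 ± 28.02 CPM (SD, n = 3 each), a log2 fold change of -6.03 (SE 0.576, edgeR adjusted p = 1.7e-04). Without SbGhd7 OE replicate 1, the highest of its group, the fitted log2 change came to -6.64 (edgeR adjusted p = 8.9e-05). Of the 20820 tested genes, 34 had a lower fitted log2 fold change.

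Sobic.010G072300.v3.2 had 11099, 10595 and 12419 counts in empty vector and 1306, 1539 and 1067 counts in SbGhd7 OE. Its groups were tight and far apart, at 344.7 ± 9.45 CPM and 45.7 ± 6.32 CPM (SD, n = 3 each). The log2 fold change was -2.91 (SE 0.143, edgeR adjusted p = 5.6e-06).

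The SUS genes did not fall in proportion. The count of Sobic.001G344500 was 8.39, 7.88 and 7.59 times that of Sobic.010G072300 in empty vector replicates 1, 2 and 3. In SbGhd7 OE the same ratio was 1.48, 0.317 and 1.01. Transcript length divides out when this ratio is compared between libraries, and the groups did not overlap. The ratio was steady among controls, and SbGhd7 OE replicate 2 had the lowest value, with the lowest level of Sobic.001G344500 and the highest of Sobic.010G072300 within its group. As the copies are related genes, reads may be shared between them, which was not tested.

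The vacuolar invertase gene went the other way. Sobic.004G004800.v3.2 had 11, 7 and 46 counts in empty vector and 1345, 3490 and 2077 counts in SbGhd7 OE. It was close to absent from the control leaves, and the lowest SbGhd7 OE library was 40.1-fold above the highest control in CPM. The mean level was 0.608 ± 0.556 CPM in empty vector and 79.5 ± 32.1 CPM in SbGhd7 OE (SD, n = 3 each). This was a 125-fold rise (log2 fold change 6.97, SE 0.619, edgeR adjusted p = 1.9e-04). Empty vector replicate 3 held 71.9% of the 64 control counts, and without it the rise was 268.7-fold (edgeR adjusted p = 9.2e-05). Of the 20820 tested genes, 107 had a higher fitted log2 fold change. Within SbGhd7 OE, replicate 2 had the highest invertase value and the lowest value of Sobic.001G344500, and replicate 1 had the reverse. SbGhd7 itself was lowest in replicate 2, at 336.5 CPM against 642.8 and 734.0 CPM in replicates 1 and 3. A link between these levels was not tested.

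**Figure D2:**
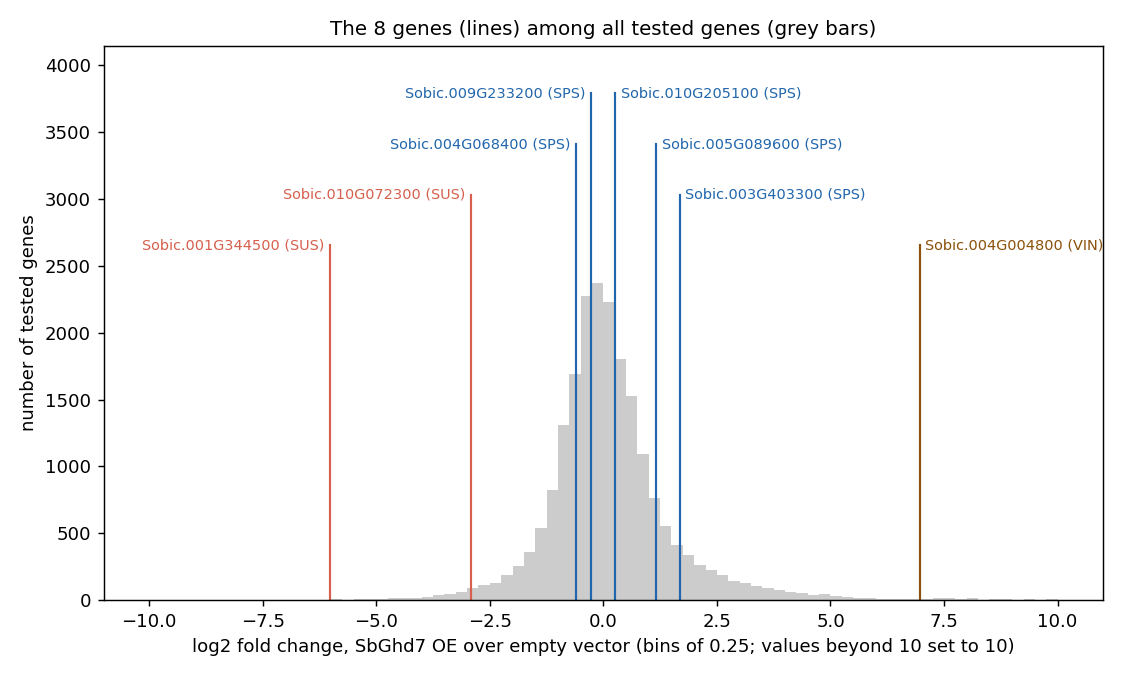
Histogram of the log2 fold change (SbGhd7 OE over empty vector) of all 20820 tested genes, with lines at the 8 sucrose enzyme genes, blue for SPS, red for SUS and brown for the vacuolar invertase (VIN). The SPS genes lie between -0.60 and 1.68, and 2072 tested genes have a higher value than the highest of them, Sobic.003G403300. Sobic.001G344500 at -6.03 and Sobic.004G004800 at 6.97 lie in the tails.

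Set against each other, the summed synthesis level was higher and the summed cleavage level lower in SbGhd7 OE. The 5 SPS genes together had 638.6, 622.2 and 529.3 CPM in empty vector, and 1124, 901.9 and 1104.5 CPM in SbGhd7 OE. The 3 cleavage genes together had 3334, 3046 and 2888 CPM in empty vector and 170.2, 179.6 and 152.2 CPM in SbGhd7 OE. The synthesis rise lay in Sobic.005G089600 (mean 246.6 to 554.7 CPM) and Sobic.003G403300 (80.1 to 257.04 CPM). Sobic.004G068400 fell and the other SPS genes did not pass. Sobic.001G344500 alone had a mean of 2744 CPM in the controls, out of a mean cleavage sum of 3089 CPM. The other cleavage genes had control means of 344.7 and 0.608 CPM, against a mean synthesis sum of 596.7 CPM. A ratio of these sums in the controls thus rests mostly on Sobic.001G344500. The ratio of the synthesis sum to the cleavage sum was 0.193 ± 0.0106 in the controls and 6.29 ± 1.15 in SbGhd7 OE (SD, n = 3 each). The value of the ratio within a library depends on transcript lengths, and no test was made of it because it is a score over chosen genes. The cleavage sum leaves out the further SUS genes described below. No invertase gene other than Sobic.004G004800 was examined, so the sum may not cover all sucrose cleavage.

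The size of this difference depended on how the cleavage genes were weighed. When each gene counted equally, as the mean log2 CPM of the synthesis genes minus that of the cleavage genes, the difference was 0.46 ± 0.48 in the controls and 1.55 ± 0.12 in SbGhd7 OE (SD, n = 3 each). The control values were 0.62, 0.85 and -0.08 and the SbGhd7 OE values 1.44, 1.52 and 1.68, and the groups did not overlap. The shift of 1.08 log2 units rested on opposite changes among the cleavage genes. It was 5.04 when the invertase gene was left out and -6.84 when the SUS genes were left out, settings chosen after seeing the data.

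The kind of cleavage transcript differed too. Of the counts of the 3 cleavage genes, the invertase gene made up between 0.00744% and 0.0431% in the controls. In SbGhd7 OE replicates 1, 2 and 3 it made up 29.4%, 63.3% and 49.2%. Its count relative to the summed count of the 2 chosen SUS genes was at most 4.31e-04 in a control library and between 0.416 and 1.72 in SbGhd7 OE. A further SUS gene, Sobic.001G378300, is not part of these values and had 1211, 992 and 1173 counts in SbGhd7 OE. With it the invertase share and ratio would be lower. All 8 genes together took between 0.352% and 0.405% of the counts of a control library and between 0.108% and 0.125% of those of an SbGhd7 OE library.

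**Figure D3:**
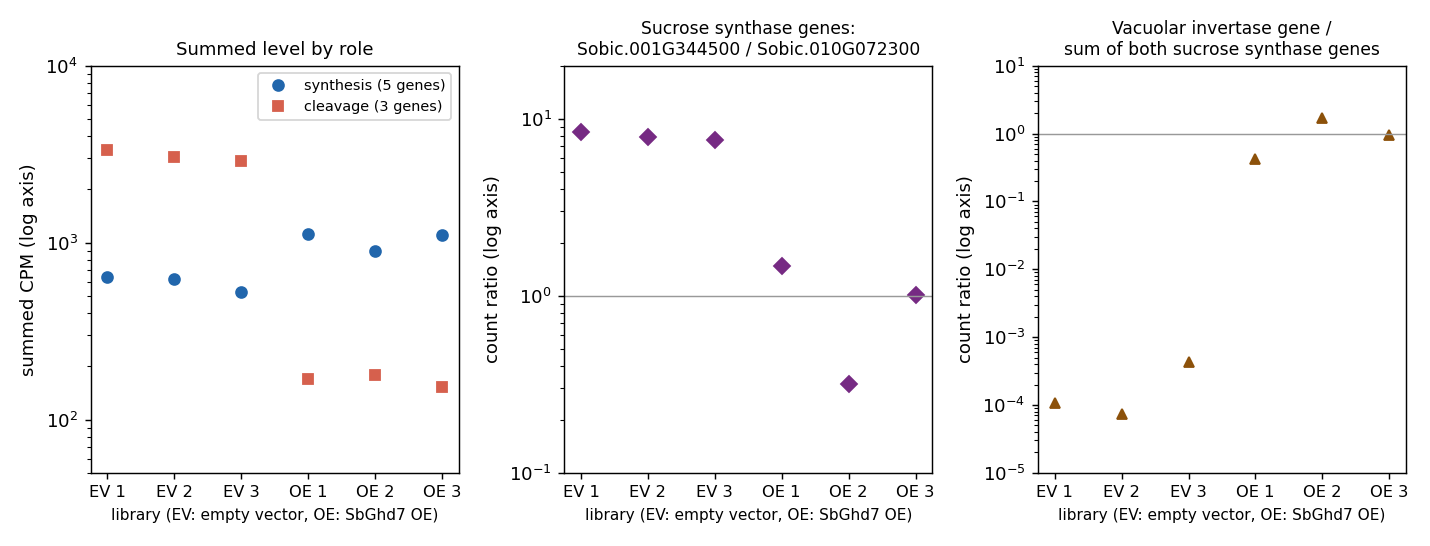
Summed CPM of the 5 synthesis and 3 cleavage genes (left), the count ratio of the SUS genes (middle) and the count of the invertase gene over the summed SUS count (right), each per library on log axes. Synthesis sums are higher and cleavage sums lower in the 3 SbGhd7 OE libraries than in the 3 empty vector libraries. CPM is not corrected for transcript length, so which sum is the larger within a library cannot be read from these values. The SUS ratio averages 7.95 in empty vector and 0.935 in SbGhd7 OE. The invertase ratio is at most 4.31e-04 in the controls and at least 0.416 in SbGhd7 OE.

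Other genes of sucrose handling had smaller fitted changes than the SUS and invertase genes described above. Of 11 further genes (3 SUS genes, 6 sucrose transporter genes SUT1 to SUT6 and the tonoplast sugar transporter genes TST1 and TST2), 8 had enough counts to test. Of these 3 rose, none fell and 5 did not pass, against 53.3% of all tested genes called. Their median log2 fold change was 0.92, against -0.0042 over all tested genes. This median rests in part on Sobic.004G357600 (1.15) and Sobic.010G276700 (0.85), SUS genes with few counts that did not pass.

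None of the 3 further SUS genes passed. Sobic.001G378300 had 65.2, 55.3 and 40.8 CPM in empty vector and 45.0, 32.3 and 42.3 CPM in SbGhd7 OE, with overlapping groups (log2 fold change -0.43, SE 0.193, edgeR adjusted p = 0.090). It passed without empty vector replicate 3 (log2 fold change -0.61, edgeR adjusted p = 0.020) and with scaling by library size alone (-0.50, edgeR adjusted p = 0.046). Sobic.004G357600 and Sobic.010G276700 had at most 35 counts in any library and did not pass (edgeR adjusted p = 0.076 and 0.17).

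Among the transporters, SUT1 (Sobic.001G488700), of the family that loads sucrose into the phloem, rose to 2.00-fold, from a mean of 554.4 ± 84.6 CPM to one of 1109.5 ± 197.3 CPM (SD, n = 3 each; log2 fold change 1.00, edgeR adjusted p = 0.0025). SUT2 (Sobic.004G353600) rose to 2.40-fold, from a mean of 6.73 ± 0.752 CPM to one of 16.2 ± 5.19 CPM (SD, n = 3 each; log2 fold change 1.26, edgeR adjusted p = 0.0022). TST2 (Sobic.004G099300), of the family that moves sugars into the vacuole, had 1826, 1592 and 1883 counts in empty vector and 2618, 6378 and 2731 counts in SbGhd7 OE. Its groups did not overlap, and replicate 2 was again the library with the highest value (log2 fold change 1.33, edgeR adjusted p = 0.0071). SUT4 (Sobic.008G193300) and TST1 (Sobic.001G312900) did not pass, with log2 fold changes of -0.20 (edgeR adjusted p = 0.16) and -0.37 (edgeR adjusted p = 0.067). TST1 passed downwards without SbGhd7 OE replicate 2 (-0.48, edgeR adjusted p = 0.024) and with scaling by library size alone (-0.44, edgeR adjusted p = 0.033). SUT3 had 0 counts in all 6 libraries, and SUT5 and SUT6 were below the count filter with at most 29 counts in a library.

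**Figure D4:**
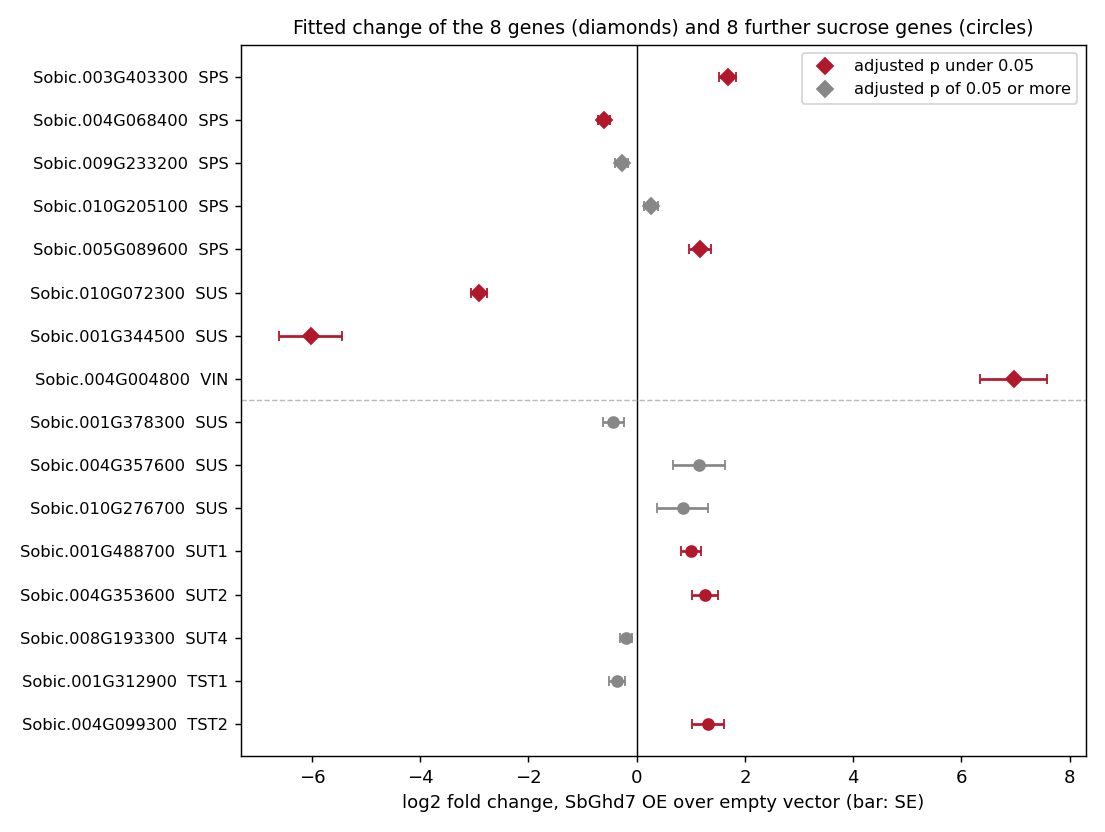
Fitted log2 fold change with its SE for the 8 sucrose enzyme genes (diamonds) and the 8 tested further sucrose genes (circles), red where the adjusted p was under 0.05 and grey otherwise. Sobic.001G344500, Sobic.010G072300 and Sobic.004G004800 lie beyond 2 log2 units and all other genes within.

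The likeness of other genes to the 8 over the 6 libraries was measured as the root mean square difference of log2 CPM between genes, each centred on its own mean over the 6 libraries. Within a difference of 0.2 log2 units there were 104 genes for Sobic.003G403300, 156 for Sobic.005G089600 and between 2081 and 2949 for each of the other SPS genes. There were 23 for Sobic.010G072300 and none for Sobic.001G344500 or Sobic.004G004800. As the profiles were not scaled, these numbers follow the size of each gene's fold change and do not show that a pattern is rare. The genes most like those that changed furthest are named here only by identifier. Sobic.009G099000 was nearest to Sobic.010G072300 (difference 0.0678), with a log2 fold change of -2.99. Sobic.002G042000 was nearest to Sobic.001G344500 (difference 0.520), with a log2 fold change of -5.42, and -6.07 without SbGhd7 OE replicate 1. Sobic.010G183600 was nearest to the invertase gene (difference 0.281), with 0, 0 and 2 counts in empty vector and 107, 252 and 117 counts in SbGhd7 OE. Sobic.004G284400 was nearest to Sobic.003G403300 (difference 0.0843), with a log2 fold change of 1.73.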

How the data were processed

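Per the submitters' processing notes, HISAT2 (2.2.1), StringTie (2.2.1) and DESeq2 (2.11.40.7) were used, with no role stated, and a genome build or strand setting is not given in the sources used here. For each library the authors deposited 1 file with an estimated count per gene model. These are whole numbers, but values of 2 outnumbered values of 1 by 2.91 to 3.57 times, so a value is not known to be 1 fragment.

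Groups and replicate numbers came from the sample titles. Genes were filtered with filterByExpr (20820 of 26611 with a count), scaled by TMM and tested with edgeR 4.0.16 (quasi-likelihood, robust, group as the only term, Benjamini-Hochberg at 0.05, R 4.3.3). SE is the absolute log2 fold change over the square root of F. Log2 CPM used a prior of 0.5 counts. Alternatives used DESeq2 1.42.0 and limma 3.58.1. Members and lists were chosen with earlier results of these data known. Beside the 8 genes, the rule for genes named in the text added SbGhd7, LHY, GI, a list of further sucrose genes and, for each of the 8, the gene of nearest profile, of which 4 are printed. None of the 34129 identifiers matched the reference table, so no sequences, lengths or positions are given. Overlapping, antisense and related genes could share counts.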

Additional observations from a re-analysis of the deposited data

How the results depend on the processing

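All alternatives but the removal of the invertase gene or the SUS genes from the balance were planned. Over 15 refits per gene, the 8 enzyme genes gave 120 values, none of them reversed and none of the 6 calls lost. Of these values 117 kept their side of the threshold and 3 newly passed, as given above for Sobic.009G233200 and Sobic.010G205100. The log2 fold change of Sobic.001G344500 lay between -6.64 and -5.63 and that of Sobic.004G004800 between 6.58 and 8.07 when 1 library was left out. The number of the 8 called was 6 or 7 with 1 library left out, and 5 with a log2 fold change of at least 1 asked for, when the count of all genes was 5798 in place of 11087. Leaving out 1 library gave between 8850 and 10722 genes over all, between 3 and 4 of the further sucrose genes, and a synthesis minus cleavage shift between 0.81 and 1.28. Scaling by library size alone called 5 further sucrose genes in place of 3. The shift was 5.01 from summed CPM, 5.04 without the invertase gene and -6.84 without the SUS genes, in place of 1.08. Summing empty vector replicates 1 and 2 or halving all values left the count of called enzyme genes at 6.

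The labels do not say whether replicate numbers pair the libraries. Deviations of same-numbered libraries from their group means correlated at 0.00828, -0.0446 and -0.0875, and no library correlated best with its own number. As the deviations within a group cancel out, these values cannot decide whether the libraries were paired. With the replicate number as a block, 6 of the 8 genes, 3 further sucrose genes and 9848 of all genes were called. Low counts limit the control level of the invertase gene and of 2 of the further SUS genes.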

Other observations

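Few well-expressed genes fell as far as Sobic.001G344500. Of 101 tested genes with a control mean of 1000 CPM or more, 10 had a fitted fall of at least 8-fold, and 1 had a lower log2 fold change than this SUS gene. Of 2893 tested genes with a control mean under 1 CPM, 7 reached a mean of 50 CPM or more in SbGhd7 OE, and the vacuolar invertase gene Sobic.004G004800 was one of them. These limits were chosen after the values were seen, and no test was made.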
